A study of Mus musculus with 18 samples.

Results

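Mir155hg, AW112010, Neat1, Malat1, Mir22hg and Gas5 are 6 long noncoding RNAs that were taken by name from the 20615 genes of an RNA-seq table of mouse bone marrow-derived macrophages (BMDMs). All 6 were among the 15789 genes with enough counts to test. The set was chosen by name with fold changes of these data already in view, among them the increase of Mir155hg with apoptotic cells in 1 strain. All of their contrasts are therefore treated as used, and their values are given as a description, without p-values.

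The samples were 18 BMDM libraries in 6 groups of 3, with BMDMs cultured from 3 mice of each strain. BMDMs came from C57BL/6 (B6) mice and from C57BL/6.NOD-Aec1Aec2 mice (SjSS), a Sjögren's syndrome model that carries NOD intervals named Aec1 and Aec2 on the B6 background. Bone marrow of mice aged 7 to 12 weeks was grown for 7 days with 20% L929 supernatant as the source of M-CSF. The supernatant was reduced to 5% before treatment. The cells were left untreated (control), given 1 µM CpG, a TLR9 agonist, for 6 h, or given apoptotic cells (ACs) at 5 per BMDM for 2 h, washed and, per the labels, cultured for 3 h more. The ACs were thymocytes killed with dexamethasone. The labels do not say whose thymocytes were given to which strain, or whether the 3 treatments of one strain used cells of the same mice. One legend of the study gives 3 mice per strain for the 3 treatments, which would mean shared mice. Another gives 3 mice per condition. The fit took all libraries as independent, so its SE values leave out any such pairing. The methods text gives a longer time after the wash than the labels do, and no time is given for the controls, so whether the treatments differed in time as well is not known. The strains differ across whole chromosome intervals.

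Long noncoding RNAs act as RNA, or as the precursor of smaller RNAs, rather than through a main coding frame. Mir155hg and Mir22hg are host genes: their transcripts carry the hairpins from which miR-155 and miR-22 are cut. Transcription of Mir155hg follows Toll-like receptor ligands through NF-κB and AP-1, and miR-155 lowers inhibitors of inflammatory signaling such as Socs1 and Inpp5d (SHIP1). AW112010 is annotated as noncoding, is induced by Toll-like receptor ligands in macrophages, and is known to be translated into a small protein. Neat1 is the scaffold of paraspeckles, Malat1 is an abundant RNA of nuclear speckles, and Gas5 hosts small nucleolar RNAs (snoRNAs) in its introns and binds the glucocorticoid receptor.

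The mature microRNAs of the 2 host genes are printed to show what the host transcripts carry. The sequences and positions are those of RefSeq on GRCm38.p6, and capitals mark the seed, bases 2 to 8, which pairs with targets. The 4 seeds differ from each other. Every arm lies inside the span of its host gene in the table, on the plus strand.
mmu-miR-155-5p, chr16:84714143-84714165: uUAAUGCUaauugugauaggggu
mmu-miR-155-3p, chr16:84714182-84714202: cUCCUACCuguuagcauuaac
mmu-miR-22-5p, chr11:75463734-75463755: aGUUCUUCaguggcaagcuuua
mmu-miR-22-3p, chr11:75463772-75463793: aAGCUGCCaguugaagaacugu
The table counts host genes, and mature microRNAs were not measured in it.

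The next sequence is the RefSeq promoter of AW112010, shown because AW112010 had the widest range of levels among the members with over 10 CPM in every group. It runs from 250 bases before to 50 bases after the transcription start on the minus strand, chr19:11050517-11050816 on GRCm38.p6, and capitals mark a match to the NF-κB consensus from 70 to 61 bases before the start.
AW112010 promoter: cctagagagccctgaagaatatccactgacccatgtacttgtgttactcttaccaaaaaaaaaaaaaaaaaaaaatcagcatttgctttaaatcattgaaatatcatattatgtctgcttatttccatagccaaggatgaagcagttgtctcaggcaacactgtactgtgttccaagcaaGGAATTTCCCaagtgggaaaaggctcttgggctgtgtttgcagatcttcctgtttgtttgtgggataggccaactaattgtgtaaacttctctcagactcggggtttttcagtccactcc
Promoters were found for 5 of the 6 RNAs, and AW112010 was the only 1 of the 5 with a match to the NF-κB consensus, which 4.51% of 32851 promoters of this length hold. The interferon response element (TTTC, any 2 bases, TTTC; 3.44% of promoters), the AP-1 element TGANTCA (7.81%) and the STAT element TTCNNNGAA (8.3%) had no match in these 5 windows on either strand. The RefSeq start of Mir155hg lies 9856 bases inside the gene of the table, so its promoter window is not at the table's 5′ end. A match is a stretch of letters and not a binding site.

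Levels are given as CPM, counts scaled to a common library total and corrected for composition with TMM factors. Folds compare the summed counts of each group over its summed scaled totals, so they can differ from ratios of mean CPM. Log2 fold changes are from edgeR's quasi-likelihood fit, and a gene is called where its Benjamini-Hochberg adjusted p is under 0.05 and the change exceeds 1.3 log2 units in either direction. Library totals were 30688336 to 57139662 counts, TMM factors 0.833 to 1.134 with the lowest in the AC treated SjSS BMDMs (0.833 to 0.838), and mitochondrial genes took 0.814% to 1.58% of counts. All 9 macrophage markers (such as Adgre1, Csf1r and Lyz2) were expressed, and their summed level was 15590 to 23880 CPM per sample. Of 19 T lineage markers, which the thymocytes would carry, 17 were in the table and 6 were tested. Their summed level was 10.9 to 12.4 CPM in B6 control, 6.02 to 7.31 in B6 AC, 12.3 to 15.6 in SjSS control and 16.1 to 21 in SjSS AC. Lck (2.11, SE 0.47, adjusted p = 0.000803) and Ccr9 (1.74, SE 0.38, adjusted p = 0.000698) rose with ACs in SjSS BMDMs, while the mean level of Cd3e was 0.0341 CPM in SjSS control and 0.0294 in SjSS AC and Themis was at 0 in SjSS AC. Rag1 was at 0 in both control groups and had 24 counts in B6 AC and 3 in SjSS AC. Summed B cell markers were at 9.41 to 26.8 CPM, neutrophil markers at 1.84 to 11.6 and dendritic cell markers at 0.161 to 0.749. Fibroblast markers were at 37.9 to 131.4 CPM in B6 and 146.1 to 230.2 in SjSS BMDMs. The part of these cells in the differences between groups was not tested.

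Per kilobase of annotated exon, Malat1 was the highest of the 6 in B6 control (134.5 CPM per kb), B6 AC (194.1) and both SjSS groups without ACs (147.2 in control, 139.4 with CpG). AW112010 was the highest with ACs in SjSS BMDMs, at 421.2 CPM per kb against 76.24 for Malat1, and the order of these RNAs was not separable in B6 CpG (136.8 and 128.2), where the Malat1 samples spread on both sides of AW112010. The exons are those of GENCODE M21, in which AW112010 spans more than in the table, so its level per kb is uncertain. Mir155hg was the lowest in all 6 groups, from 0 in SjSS control to 2.339 CPM per kb in SjSS AC. In bulk RNA a lower level can come from fewer cells that make an RNA or from less of it per cell, and these cannot be told apart.

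**Figure D1:**
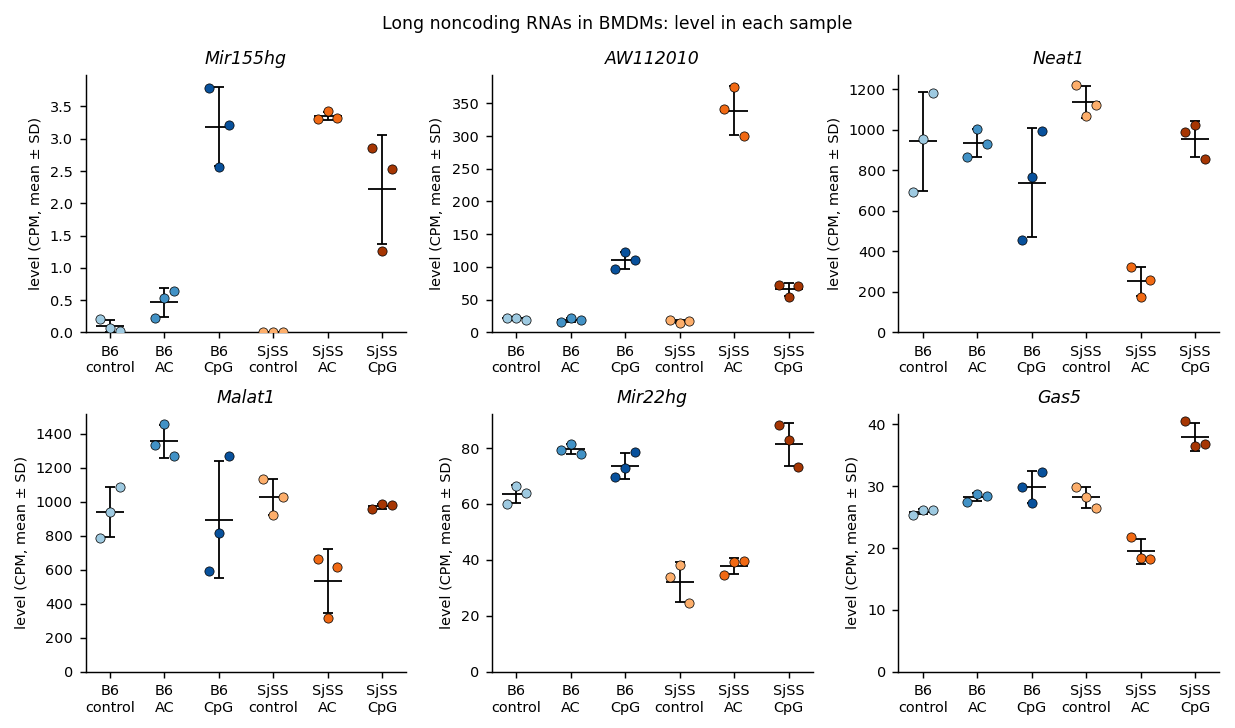
Level of each long noncoding RNA in CPM (y axis, linear, from 0) in every sample, by strain and treatment (x axis); points are samples, horizontal marks the mean and vertical lines the SD of 3 samples, cut at 0. Mir155hg is 0 in the 3 SjSS control samples and 3.31 to 3.43 CPM in the 3 SjSS AC samples, and the AW112010 samples of that group, at 300.1 to 374.5 CPM, lie above all others.

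Mir155hg (chr16:84703167-84715246, plus strand, mm10, lincRNA) was almost absent from control BMDMs and present after either treatment. In B6 control the 3 samples held 13, 3 and 1 counts, or 0.208, 0.0626 and 0.0178 CPM, and in SjSS control all 3 held 0. With ACs the B6 samples reached 0.218, 0.53 and 0.646 CPM, the lowest of them close to the highest control sample. The SjSS samples reached 3.31, 3.43 and 3.32 CPM, with no overlap with any AC treated B6 sample and an SD of 0.0661 CPM. With CpG the samples were at 3.79, 2.56 and 3.22 CPM in B6 and 2.86, 1.26 and 2.53 CPM in SjSS, and the strains overlapped.

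Against control, Mir155hg was 4.50-fold higher with ACs (log2 fold change 2.16, SE 0.57) and 31.8-fold higher with CpG (4.95, SE 0.49) in B6 BMDMs. Both rest on B6 control sample 1, which holds 13 of the 17 control counts, and were 3.49 (SE 0.71) and 6.28 (SE 0.59) on the log2 scale without it. In SjSS BMDMs the control was at 0, so with a floor of 3 counts over the group the level was at least 160.2-fold higher with ACs and at least 107.2-fold higher with CpG. Leaving out 1 sample put these bounds at 98.5 to 161.2 and at 65.9 to 128.8. Under ACs, SjSS BMDMs held 7.31-fold more Mir155hg than B6 (2.85, SE 0.40). Under CpG the log2 difference between SjSS and B6 was -0.52 (SE 0.35), which was not called. In control, B6 was at least 4.87-fold higher, a bound that falls to 1.83 without B6 control sample 1. That call was lost without this sample or without any 1 of the SjSS control samples. The mean levels ran in the order SjSS AC, B6 CpG, SjSS CpG, B6 AC, B6 control, SjSS control, where neighbours among the first 3 overlapped and the later steps did not. The 3 genes with the most similar pattern over the 6 group means were Tnf, Tarm1 and Ccl4, with a root mean square difference in log2 CPM of 0.34, 0.45 and 0.51, beside a median of 2.48 over all tested genes.

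AW112010 (chr19:11047617-11050567, minus strand, lincRNA) was at its highest with ACs in SjSS BMDMs, and its B6 AC samples overlapped B6 control. The B6 control samples were at 21.8, 22.7 and 19.4 CPM and the B6 AC samples at 15.6, 21.7 and 19.1 CPM (log2 fold change -0.18, SE 0.13, not called). The SjSS control samples were at 18.4, 15 and 16.8 CPM and the SjSS AC samples at 341.3, 374.5 and 300.1 CPM. This is 20-fold (log2 fold change 4.34, SE 0.14), and the difference between the strains' log2 responses was 4.52 (SE 0.19).

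With CpG, AW112010 reached 96.5, 123.5 and 109.9 CPM in B6 and 72.5, 53.9 and 71 CPM in SjSS, so every B6 sample was above every SjSS sample. The increase over control was 5.12-fold in B6 (2.37, SE 0.13) and 3.90-fold in SjSS (1.97, SE 0.13). The order of the strains was thus opposite in the AC and CpG groups, with SjSS over B6 at 4.17 (SE 0.14) in the first and -0.74 (SE 0.12) in the second. The genes with the most similar pattern were the guanylate-binding proteins Gbp7 and Gbp3, which are interferon-induced GTPases, and Phf11b, at 0.32, 0.34 and 0.43 beside a median of 1.62 over all tested genes. The deposited span of AW112010 is shorter than in GENCODE M21, where the gene starts at 11047612 and ends at 11055808.

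**Figure D2:**
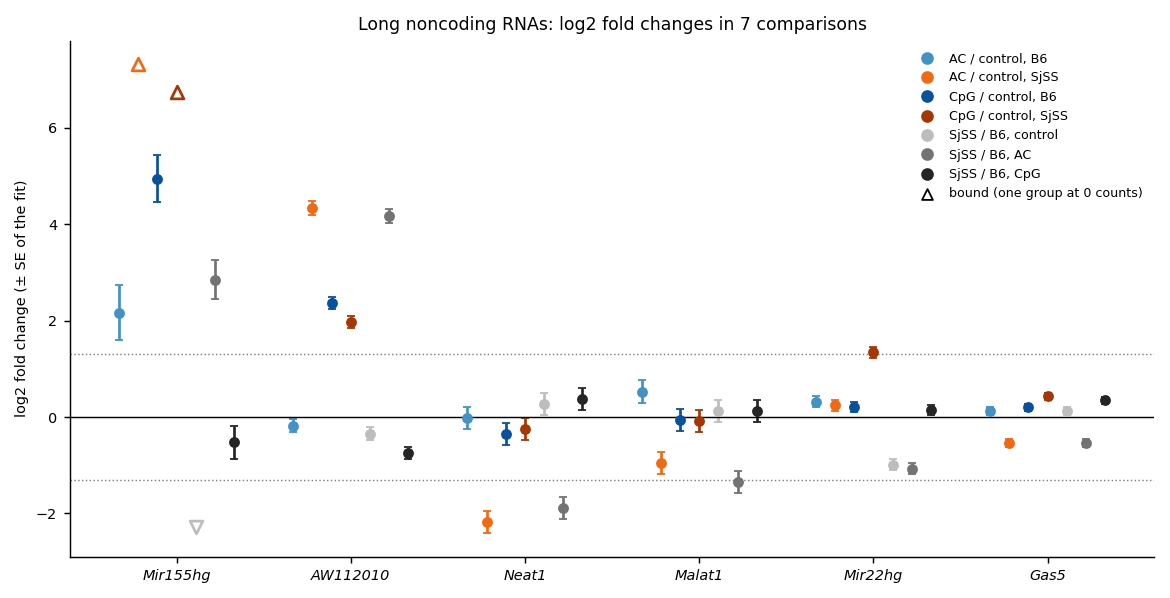
Log2 fold change (y axis) of each long noncoding RNA (x axis) in 4 treatment responses and 3 strain differences (colours); points are fitted values with their SE from 3 samples a group, open triangles are bounds where SjSS control was at 0 counts, and dotted lines mark a size of 1.3. Mir155hg and AW112010 lie above the upper line with CpG in both strains, and Neat1 lies below the lower line with ACs in SjSS BMDMs.

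Neat1 (chr19:5824708-5845479, minus strand, lincRNA) was lower with ACs in SjSS BMDMs. Its SjSS control samples were at 1220, 1069 and 1123 CPM, and its SjSS AC samples at 322.1, 176.4 and 256.9 CPM, below every other sample of the study. The level with ACs was 0.215 times that of control (log2 fold change -2.18, SE 0.24). B6 BMDMs were at 693.8, 953.9 and 1180 CPM in control and at 866.4, 1004 and 927.7 CPM with ACs, a log2 fold change of -0.02 (SE 0.23), and the log2 responses of the strains differed by -2.16 (SE 0.32). With CpG the samples were at 457.4, 766.2 and 995.7 CPM in B6 and 991, 1022 and 855.9 CPM in SjSS, and neither change from control was called.

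Malat1 (chr19:5795690-5802673, minus strand, lincRNA), 22035 bases from Neat1 on the same strand, lay above control in B6 and below control in SjSS BMDMs with ACs. B6 samples were at 789.6, 942.6 and 1085 CPM in control and at 1335, 1460 and 1270 CPM with ACs, without overlap, though the log2 fold change of 0.53 (SE 0.23) did not pass the test. SjSS samples were at 1132, 922.7 and 1028 CPM in control and at 663.1, 317.1 and 617.1 CPM with ACs (-0.95, SE 0.23), which passed the test but not the size limit. SjSS was below B6 with ACs by -1.35 (SE 0.23) and the responses differed by -1.48 (SE 0.33). Both sizes rest in part on SjSS AC sample 2 and were -1.08 and -1.21 without it, under the limit, and without B6 AC sample 2 the strain difference was -1.29. With CpG, samples were at 595.1, 819.1 and 1272 CPM in B6 and 955.9, 983.9 and 981 CPM in SjSS, overlapping control.

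The 2 nuclear RNAs varied together among replicates. The within-group SD of log2 CPM was 0.34 for Neat1 and 0.35 for Malat1, where the median for genes within 0.5 log2 units of the same level was 0.081 and 0.082. Of 161 genes at the level of Neat1 and 111 at the level of Malat1, 1 each had a larger SD. For Neat1 that gene was Malat1, so the ranks are not separate observations. In 14 of 18 samples both lay on the same side of their group means, with a Pearson r of 0.91 between the deviations (18 samples in 6 groups, values from the same libraries). Over 7284 other genes with a mean log2 CPM above 4, the 3 whose deviations went most closely with the mean of Neat1 and Malat1 were Leng8 (r = 0.97), Zkscan3 (0.95) and Pde1b (0.94), chosen after their values were seen. The ratio of Neat1 to Malat1 counts was 0.416 to 0.557 in the SjSS AC samples, lower than in any other sample (0.649 to 1.16). The part of library preparation in this shared spread was not tested.

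**Figure D3:**
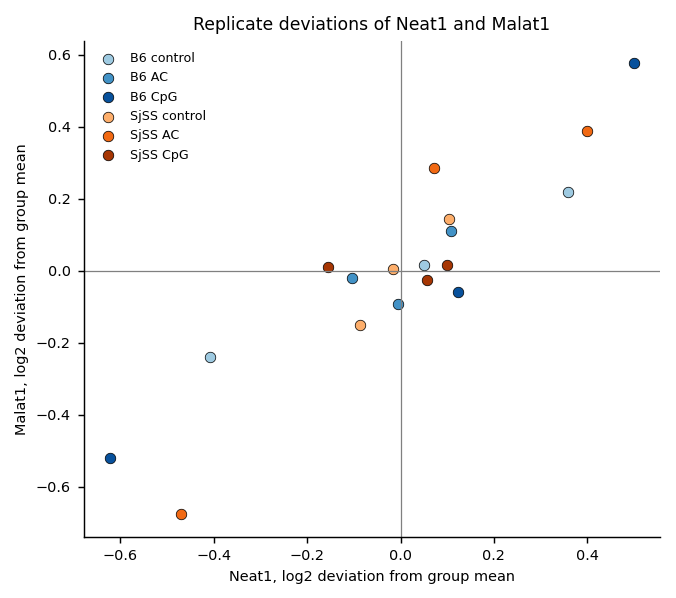
Log2 deviation of Neat1 (x axis) and Malat1 (y axis) from their group means, with 1 point per sample coloured by group. Deviations lie along the rising diagonal (r = 0.91), with B6 CpG sample 1 (-0.62 and -0.52) and SjSS AC sample 2 (-0.47 and -0.68) lowest.

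Of 14 paraspeckle proteins, which bind Neat1 or each other in paraspeckles, none was called with ACs in SjSS BMDMs by edgeR's quasi-likelihood test. By adjusted p alone, 7 of the 14 were higher and 2 lower, and the median log2 fold change was 0.16 beside -0.02 over all tested genes. Pspc1 (0.77, SE 0.06, adjusted p = 2.94e-09) and Nono (0.68, SE 0.05, adjusted p = 1.31e-09), both core proteins of paraspeckles, were higher, and were picked out after their values were seen.

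Mir22hg (chr11:75461539-75466677, plus strand, processed transcript) differed between the strains without treatment. B6 control samples were at 60.1, 66.5 and 64.1 CPM and SjSS control samples at 33.8, 38.2 and 24.4 CPM. The pooled SjSS level was 0.493 times that of B6 (log2 difference -0.99, SE 0.11). With ACs the strains were at 79.2, 81.5 and 77.9 CPM in B6 and 34.5, 39.4 and 39.5 CPM in SjSS (-1.07, SE 0.11). With CpG the strains were at 69.5, 72.7 and 78.7 CPM in B6 and 88.2, 82.7 and 73.1 CPM in SjSS, and the samples overlapped (0.14, SE 0.11).

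The CpG response of Mir22hg was thus 2.61-fold in SjSS (log2 fold change 1.35, SE 0.11) and 1.16-fold in B6 (0.21, SE 0.11), and the difference of the log2 responses was 1.13 (SE 0.16). The SjSS response stands just over the size limit of 1.3 and was 1.18 without SjSS control sample 3 and 1.28 without SjSS CpG sample 1. Mir22hg shares bases with Tlcd2 on the same strand, so counts can be split between them, and Tlcd2 had a log2 strain difference in control of 0.17. The genes with the most similar pattern were Klf16, Gm15452 and Plekhg4 (0.16, 0.18 and 0.19, beside 0.62 over all tested genes).

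Gas5 (chr1:161034422-161038540, plus strand, processed transcript) differed by at most 0.66 log2 units in the 9 comparisons. Control samples were at 25.4, 26.2 and 26.1 CPM in B6 and 29.9, 28.2 and 26.5 CPM in SjSS. With ACs, B6 samples were at 27.5, 28.7 and 28.4 CPM and SjSS samples at 21.8, 18.5 and 18.1 CPM, the latter below every other sample (log2 fold change -0.54, SE 0.08 in SjSS against 0.12, SE 0.08 in B6). With CpG, Gas5 was at 29.9, 27.2 and 32.4 CPM in B6 and 40.5, 36.5 and 36.8 CPM in SjSS, above every other sample (0.43, SE 0.08 in SjSS). It overlaps Zbtb37 on the other strand, whose log2 fold change with ACs in SjSS was -0.93, and the strand used in counting is not given in the sources used here.

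With ACs, 1 of the 6 RNAs was called in B6 (4.47% of all tested genes were) and 3 in SjSS (12.9%). With CpG, 2 were called in B6 (12.7%) and 3 in SjSS (9.26%). Between strains, 1 was called in control (2.01%), 4 with ACs (8.93%) and 0 with CpG (2.61%), where 2 had an unadjusted p under 0.05 and DESeq2 also called 0. For the difference between the strains' responses, 4 were called with ACs (7.53%) and 0 with CpG (0.614%), where 3 had an unadjusted p under 0.05 and DESeq2 called 1. By adjusted p alone, 2 of the 6 passed with ACs in B6 (38.3% of tested genes) and 5 in SjSS (58%), and 3 with CpG in B6 (57.9%) and 4 in SjSS (54.2%). Between strains the numbers were 2 in control (19.6%), 6 with ACs (49.4%) and 2 with CpG (19.7%), and for the difference of the responses 5 with ACs (37.9%) and 1 with CpG (5.85%). Since the members were chosen with these results known, nothing is read from these counts.

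The other genes of the miR-155 pathway were described from a list of 19 known or proposed targets, all of which were tested. With ACs in SjSS BMDMs, 6 were called higher and none lower, and the median log2 fold change was 0.77 beside -0.02 over all tested genes. Socs1, an inhibitor of cytokine signaling, rose from 2.02 to 313.3 CPM (log2 fold change 7.31, SE 0.18, adjusted p = 2.62e-16). Peli1, a ubiquitin ligase of Toll-like receptor signaling, rose by 3.05 (SE 0.08, adjusted p = 2.07e-16), Ikbke, an IκB kinase, by 1.92 (SE 0.06, adjusted p = 7.64e-15), and Bach1, a repressor of heme oxygenase, by 1.39 (SE 0.07, adjusted p = 4.69e-12). In B6 BMDMs 2 of the 19, Socs1 (1.95, SE 0.17) and Peli1 (1.40, SE 0.07), were called higher with ACs, and the median was 0.22 beside 0.00 over all genes. Inpp5d, picked out as a classical target after its value was seen, was lower with ACs in SjSS by adjusted p alone (-0.69, SE 0.06, adjusted p = 2.63e-09). By this rule 2 of the 19 were lower and 15 higher there. Maf, also picked out after its value was seen, went from 597.3 CPM in SjSS control to 352.9 with ACs. Its 3′ UTR holds no match to the miR-155-5p seed. Inpp5d went from 500.2 CPM in SjSS control to 310.6 with ACs and 265 with CpG. In B6 it was at 433 CPM in control, 388.9 with ACs and 222.6 with CpG. With CpG, 3 of the 19 in B6 and 4 in SjSS were called higher.

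**Figure D4:**
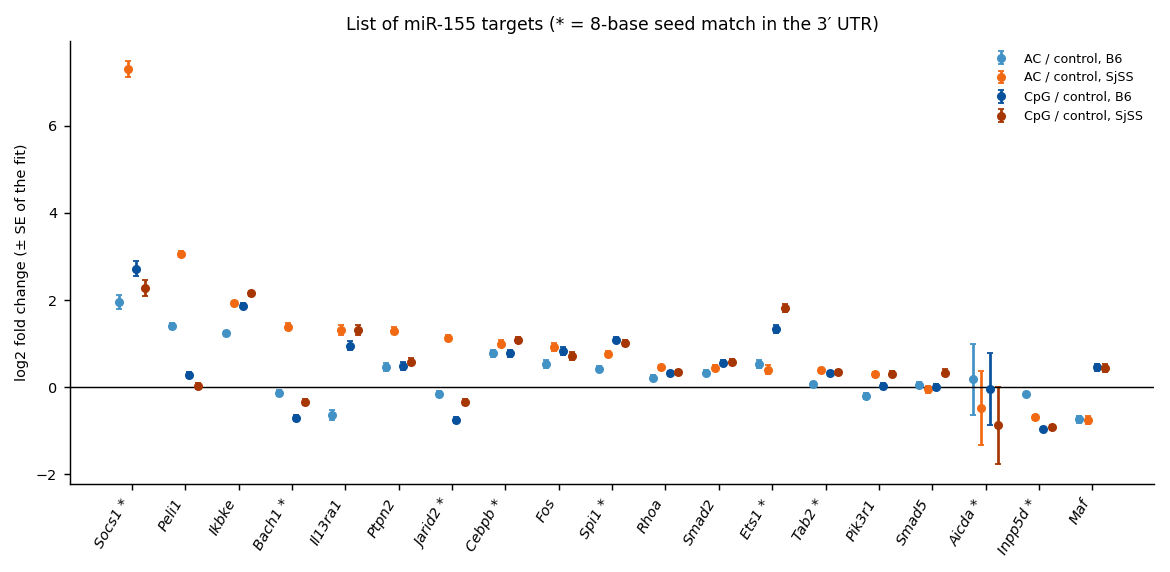
Log2 fold change with SE (y axis) of the 19 listed miR-155 targets (x axis, sorted by the AC response in SjSS) in the 4 treatment responses; an asterisk marks an 8-base seed match in the 3′ UTR. Socs1 lies highest at 7.31 with ACs in SjSS BMDMs, and genes with and without the asterisk lie on both sides of 0.

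A site for miR-155-5p, taken as AGCATTAA, the complement of the seed followed by A, was found in 1 annotated 3′ UTR per gene of GENCODE M21 for 9 of the 19 list genes. Among 12506 tested genes with a 3′ UTR, 367 (2.93%) held it. Sites in a repressor of cytokine signaling, a phosphatase, a transcription repressor and a myeloid transcription factor are printed with the match in capitals, on mm10.
Socs1, chr16:10784195-10784224, minus strand: cgctgtgccgcAGCATTAAgtgggggcgcc
Inpp5d, chr1:87719827-87719856, plus strand: tgtttttaaaaAGCATTAAagaaaaccatc
Bach1, chr16:87732177-87732206, plus strand: atgaacagtttAGCATTAAgggttaatttt
Spi1, chr2:91115426-91115455, plus strand: ccgccggccatAGCATTAAcccgtcgcccg
With ACs in SjSS, 2 of the 9 list genes with the match (Socs1 and Bach1) and 4 of the 10 without it were called higher. Among those without it, Ikbke and Smad5 held the complement of the seed without the final A. The median log2 fold change of all 367 genes with the match was 0.05, and that of the 12139 without it was 0.00. Called higher were 8.72% with it and 7.22% without, and called lower 3.27% and 4.23%. Genes with the match had longer 3′ UTRs, with a median of 2363 bases, than genes without it.

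For miR-22-3p, 9 of 10 listed targets were tested, and 1 was called with ACs in SjSS. This was Sirt1, a deacetylase (1.39, SE 0.12, adjusted p = 7.72e-09). With CpG, where Mir22hg was higher in SjSS BMDMs, 0 of the 9 were called in SjSS by edgeR and the median was 0.06, while 4 were higher and 2 lower by adjusted p alone. Esr1, the estrogen receptor, was called lower with CpG in B6 (-1.98, SE 0.14, adjusted p = 3.11e-10), beside -1.29 (SE 0.13) in SjSS, and Tet2, a DNA demethylase, was called higher with CpG in B6 (1.55, SE 0.10, adjusted p = 9.86e-11). The complement of the miR-22-3p seed was in the 3′ UTR of every listed gene. With A after it, the match GGCAGCTA was in 3 of the 9, beside 2.15% of the tested genes with a 3′ UTR. It is printed for Sirt1 and Esr1.
Sirt1, chr10:63320143-63320172, minus strand: ccaaaacttgtGGCAGCTAactttttaaaa
Esr1, chr10:5003626-5003655, plus strand: aaattattcagGGCAGCTAattttgctttt

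Genes upstream of Mir155hg were described from a list of 14 NF-κB and AP-1 subunits. With ACs in SjSS BMDMs 7 were called higher and none lower (median 1.26), led by Nfkb2 (2.80, SE 0.07, adjusted p = 4.93e-16), Nfkb1 (2.50, SE 0.07, adjusted p = 1.22e-15), Relb (2.35, SE 0.09, adjusted p = 4.41e-14) and Rel (1.63, SE 0.11, adjusted p = 1.78e-10). In B6 BMDMs 2 of them were called higher with ACs, Fosl1 (1.78, SE 0.24, adjusted p = 9.08e-06) and Nfkb2 (1.71, SE 0.07, adjusted p = 2.54e-12), and the median was 0.32. By adjusted p alone, 8 of the 14 were higher and 0 lower with ACs in B6, and 11 higher and 1 lower in SjSS. With CpG, 5 in B6 and 6 in SjSS were called higher and 1 lower in each. Of 13 genes that cut or load microRNAs, 1 was called with ACs in SjSS, Ago4, an Argonaute (-1.65, SE 0.08, adjusted p = 2.48e-12), and by adjusted p alone 6 were lower and 2 higher (median -0.17). The mean level of Ago4 was lower than control in the other treated groups too, where it was not called. It was at 38.5 CPM in B6 control, 20.9 in B6 AC and 16.5 in B6 CpG. In SjSS it was at 42.3 CPM in control, 13.4 with ACs and 22.6 with CpG. The other 3 host genes in the table with symbols of the same form had called changes of Mir17hg (1.72, SE 0.26, adjusted p = 1.17e-05) and Mir99ahg (1.52, SE 0.35, adjusted p = 0.00111) with CpG in SjSS BMDMs, and with ACs Mir17hg (-1.98, SE 0.28, adjusted p = 1.07e-05) and Mir142hg (-1.93, SE 0.77, adjusted p = 0.0453) were lower in SjSS than in B6. The AC responses of the strains also differed for Mir17hg (-1.49, SE 0.39, adjusted p = 0.00499). Mir142hg was near the floor, with 59 counts over the B6 AC samples and 13 over the SjSS AC samples. The latter ran from 0 to 0.310 CPM.

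For Gas5, 15 of 18 other snoRNA host RNAs were tested. With ACs in SjSS, Snhg20 was called lower (-2.01, SE 0.16, adjusted p = 3.14e-09), 6 were lower and 1 higher by adjusted p alone, and the median was -0.48. In B6 BMDMs none was called with ACs by edgeR's test, and 3 were higher and 4 lower by adjusted p alone. The 1 higher in SjSS was Zfas1 (0.95, SE 0.10, adjusted p = 2.43e-07), named after its value was seen. Of 8 genes that glucocorticoids induce, which matter because the ACs were killed with dexamethasone and Gas5 binds the receptor, 0 were called with ACs in B6 by edgeR and 1 in SjSS, Per1, which was lower (-1.35, SE 0.10, adjusted p = 1.45e-09). By adjusted p alone, 2 were higher and 2 lower in B6 (median 0.09), and 2 were higher and 4 lower in SjSS (median -1.08). With CpG, where no ACs were given, 3 of the 8 were called lower in B6 (median -1.02) and 2 in SjSS (median -1.04), and none higher. Their summed level was 304.7 to 329.8 CPM in B6 control, 359.4 to 390.2 in B6 AC, 299.4 to 375.9 in SjSS control and 400.2 to 453.3 in SjSS AC, a sum of which Sgk1 made up 163 CPM in SjSS control and 272.2 in SjSS AC, while Tsc22d3 went from 65.4 to 27.6 CPM, both named after their values were seen. The part of glucocorticoid in the values of Gas5 was not tested.

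Among 17 tested of 25 other long noncoding RNAs of the list, 3 were called higher with ACs in SjSS and 2 lower. Ptgs2os2, antisense upstream of Ptgs2, was higher (2.34, SE 0.49, adjusted p = 0.000411). Gm16685 was also called higher, with 1 count in SjSS control and 48 in SjSS AC, too few in control for a fold. Kcnq1ot1, the RNA that silences an imprinted cluster, fell from 5.98 to 1.23 CPM (-2.31, SE 0.42, adjusted p = 0.000109), and Mirt1 was also lower (-2.66, SE 0.59, adjusted p = 0.000727).

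The lower Neat1, Malat1 and Gas5 in AC treated SjSS BMDMs stood beside a shift of the annotated noncoding classes. Without the 6 members, 94 of 393 tested lincRNAs (23.9%) were called lower and 23 (5.85%) higher with ACs in SjSS, with a median log2 fold change of -0.62. Antisense transcripts (19.7% lower, 7.01% higher, median -0.57) and processed transcripts (20.8% lower, 8.57% higher, median -0.60) were similar. Protein-coding genes had 4.25% lower and 7.27% higher and a median of 0. In B6 BMDMs 3.05% of lincRNAs were called lower and 2.04% higher with ACs (median -0.24). With CpG, 12.5% of lincRNAs were called lower and 6.87% higher in B6 (median -0.27), beside 7.06% and 5.78% of protein-coding genes. In SjSS, CpG gave 7.38% of lincRNAs lower and 6.62% higher (median -0.20), beside 4.55% and 4.71% of protein-coding genes. Library totals in place of TMM factors were an alternative chosen after seeing the data. With them, 37.4% of lincRNAs were lower and 4.33% higher with ACs in SjSS. The protein-coding split turned to 9.94% lower and 5.19% higher. Calls over all genes with ACs in SjSS were then 29.7% higher, against 54.9% with TMM. Mir155hg and AW112010 were higher where these classes were mostly lower.

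**Figure D5:**
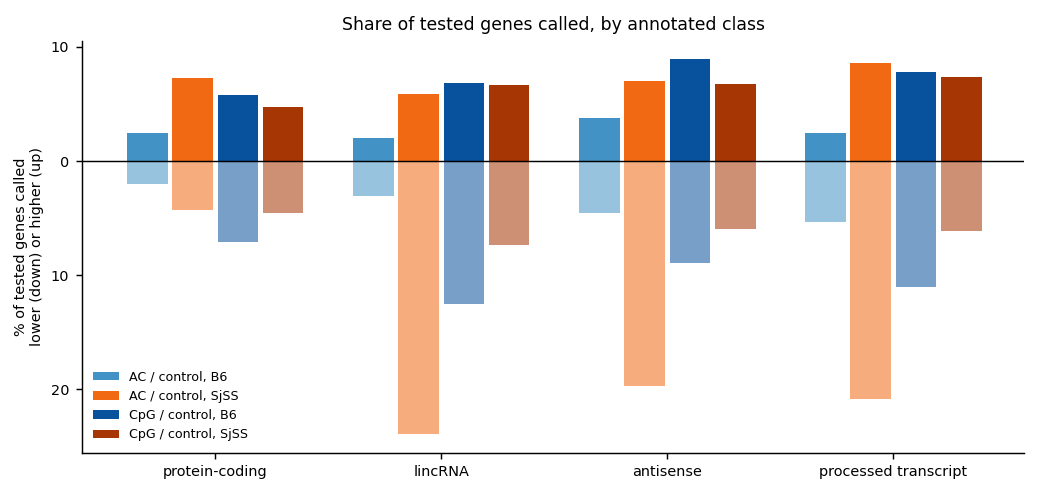
Share of tested genes called higher (upward bars, dark) or lower (downward bars, light) in the 4 treatment responses (colours), for protein-coding genes and 3 noncoding classes (x axis), without the 6 named RNAs. The longest downward bars are those for ACs in SjSS BMDMs, at 23.9% of lincRNAs, 19.7% of antisense and 20.8% of processed transcripts, against 4.25% of protein-coding genes.

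Genes within 250 kb of each RNA were described for their own changes. Over all tested genes, 7.09% were called higher and 5.83% lower with ACs in SjSS, and 2.43% higher and 2.04% lower in B6. The neighbours are few, and nothing is read from their counts. Near Mir155hg, 2 of 5 tested neighbours were called higher with ACs in SjSS. They were Mrpl39, a mitochondrial ribosomal protein gene 2330 bases away on the other strand (log2 fold change 1.40, SE 0.08, adjusted p = 1.01e-11), and Jam2 at 58877 bases (1.64, SE 0.43, adjusted p = 0.00317). Near AW112010, 2 of 9 were, Ccdc86 (1.87, adjusted p = 5.69e-14) and Slc15a3 (1.38, adjusted p = 2.71e-11). Near Neat1, Cdc42ep2 rose in all 4 treatment responses, by 3.98 with ACs in SjSS and 2.69 in B6 and by 4.19 and 3.89 with CpG, while Gm10814 (-1.93, adjusted p = 0.00158) and Sipa1 (-1.42, adjusted p = 5.61e-13) fell with ACs in SjSS. Near Mir22hg, 2 of 17 tested neighbours were called lower with ACs in SjSS, led by Rtn4rl1 (-4.00, SE 0.35, adjusted p = 8.49e-09), which was also called lower with ACs in B6 (-2.42) and with CpG in B6 (-3.79) and SjSS (-4.35). Near Gas5, 0 of 10 tested neighbours were called with ACs by edgeR in either strain.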

How the data were processed

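The deposited table held estimated counts per gene for 18 libraries. Per the labels and the study's methods, the authors aligned paired reads to mm10 with STAR and quantified genes in Partek by expectation maximisation, without normalization. Their notes list DESeq2 version 3.13. Strand use is not given in the sources used here. Of the deposited estimated counts 41.1% were not whole (tolerance 1e-06), and all were rounded for tests.

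Genes were tested with edgeR 4.0.16 in R 4.3.3 (filterByExpr, TMM, quasi-likelihood, 6 group means over 18 samples, 9 comparisons), with Benjamini-Hochberg adjustment over 15789 genes. Calls used the limits in the study's methods, an adjusted p below 0.05 with a change of more than 1.3 log2 units. A legend of the study gives 1.3 as a fold change, which is less strict. Alternatives were DESeq2 1.42.0, its size factors, other filters, the compared groups only, a replicate block, leaving out each sample, and library totals only. Scripts were tested on simulated counts. The members and lists were chosen with earlier results of these data known. By the naming rule, the text names the members, at most 4 called genes per list and 4 neighbours per member (largest change first), marker genes, and the 3 genes most like each member by group means (log2 CPM, prior count 2). Genes outside the rule are said to have been picked after their values were seen. Mir155hg bounds use 3 counts over the group. The SE values come from the fit and include the spread between replicates, while the floors cover counting error only. Replicate libraries differed beyond sampling noise (chi-square per gene 7.59 to 30.5 over 18 pairs). The study gives 3 mice per strain, and the labels do not tie libraries to mice. Of the 20615 genes, 0 lacked a name. Motifs and target sites were searched on both strands of promoters and on the coding strand of 1 transcript's 3′ UTR per gene, from RefSeq (GRCm38.p6) and GENCODE M21. No mature microRNA was measured.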

Additional observations from a re-analysis of the deposited data

Results flagged for a closer look

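The response of 5 members to ACs differed between the strains in the test of the difference itself, on the log2 scale as SjSS minus B6. The difference was 4.52 for AW112010, -2.16 for Neat1, -1.48 for Malat1 and -0.66 for Gas5. For Mir155hg the fitted difference was 8.14, a value that depends on the prior count because SjSS control was at 0, and it was 6.79 without B6 control sample 1. For CpG the test separated the strains for Mir22hg, at 1.13. The members were chosen with these results known, and among all tested genes 37.9% passed this test for ACs and 5.85% for CpG.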

How the results depend on the processing

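The number of members called stayed within 1.5 times its reported value in all 9 comparisons with DESeq2 size factors, without a filter on low counts, with a filter of 10 counts in 3 samples and with library totals only, the last chosen after seeing the data. DESeq2 called 1 member instead of 0 for the difference of the CpG responses (Mir155hg). In control, where 1 was called, the fit of the compared groups only called 0, since Mir155hg failed its filter, and leaving out 1 sample gave 0 to 1. The other leave-one-out ranges were 2 to 3 with CpG in SjSS (Mir22hg), 3 to 4 for strains under ACs and 3 to 4 for the difference of AC responses (both Malat1). The replicate block changed no member count (3 with ACs in SjSS). Its effects followed the replicate number and were shared by the strains, whose mice differ. It therefore could not show what pairing within each strain would change. Same-numbered libraries correlated at 0.02 to 0.264 in B6 and 0.027 to 0.142 in SjSS, 5 and 4 of 9 pairs over 0.1, while 0 of 18 different-numbered pairs in either strain were. This hints at shared mice, and all 3 pairs of B6 control with B6 CpG were over 0.1. In SjSS every same-numbered pair (lowest 0.0272) was above every different-numbered pair (highest 0.0238). In B6 the lowest same-numbered pair (0.0198) was below the highest different-numbered pair (0.0745). The labels do not state shared mice, and the fit without the block was kept. No block by mouse within each strain was fitted, so the effect of such pairing was not tested. In all, 14 of 18 samples correlated best with their own number in both other groups.

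Library totals only moved the median of all genes with ACs in SjSS to -0.43. Relative to it Malat1 was at -0.93, Neat1 at -2.16, AW112010 at 4.35 and Gas5 at -0.52, and this setting called Malat1 (-1.36) there and Mir22hg between strains with ACs (-1.37) but not Mir22hg with CpG in SjSS (1.22). In it 18 of 54 member values moved by more than a limit set from the SE of the main fit. Called members kept their direction in every setting run. Depth limits Mir155hg most, with 0 to 188 counts per sample.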
